A study of Mus musculus with 7 samples.

Results

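A set of 10 genes of the p53 pathway and of cell cycle arrest was followed in mouse liver: Trp53, Mdm2, Cdkn1a, Cdkn2a, Ccng1, Trp53inp1, Ei24, Gadd45a, Gadd45b and Gadd45g. They were taken by symbol, all 10 were among the 23366 gene rows of the tables, and 8 of them passed the filter on low counts; Cdkn2a and Gadd45b did not. The livers compared came from the inbred mouse strain C57BL/6 at 21 months (n = 3, called old below) and at 3 months (n = 4, called young), with no treatment stated for either age. Sex and feeding state are not in the labels, and neither is whether each library is a different mouse; p-values therefore reflect only how far these libraries vary, part of which could be technical. RNA was enriched for mRNA and sequenced strand-specifically.

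The transcription factor p53, encoded by Trp53, is kept low in resting cells by the ubiquitin ligase MDM2 and is stabilised mostly at the protein level when DNA is damaged. It then switches on arrest genes such as Cdkn1a, genes of cell death and autophagy, and Mdm2 itself, which closes a feedback loop. In liver, where most hepatocytes rest outside the cell cycle, p53 and the CDK inhibitor p21 made from Cdkn1a restrain re-entry into division after injury. Cdkn2a lies upstream: its p19Arf product blocks MDM2, and its p16Ink4a product inhibits CDK4 and CDK6. The Gadd45 genes encode small stress proteins that bind MAP3K4 and cell cycle regulators, and of the 3 only Gadd45a is a classical p53 target.

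In old livers the RNA of Trp53inp1, Ei24 and Gadd45g was higher, by 1.58-fold, 1.40-fold and 2.52-fold, and Cdkn2a RNA, near the counting floor, was counted 27 times in 3 old libraries and 3 times in 4 young ones. Trp53 itself, Mdm2, Cdkn1a, Ccng1 and Gadd45a did not pass the test. Of the 8 genes tested, 3 were called higher and 0 lower by edgeR at an adjusted p of 0.05, where 5.47% of all 11251 tested genes were called higher and 5.86% lower (11.3% in all). At an unadjusted p under 0.05 the counts were 4 higher and 0 lower, and DESeq2 and limma voom also called 3 higher and 0 lower. The count was 2 with the replicate block, with the effective length shortfall (described below) as a covariate, and without young replicate 2 or 4, where the Gadd45g call ended; it was 4 without old replicate 2, with Ccng1, and with no filter on low counts, with Cdkn2a. Of the 8 genes tested, only these 3 had ages that did not overlap in CPM. That held for 24.2% of all tested genes (11.3% higher and 12.8% lower at 21 months). A called gene is likely to separate, so the separation is no support beyond the calls. The median log2 fold change of the 8 genes was 0.19, beside -0.0015 over all tested genes. The genes were chosen with earlier results of these data known, so their shares and median are a description and not a test of the set. In these bulk samples, fewer cells of a type and less RNA per cell cannot be told apart.

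The p53 binding element consists of consecutive 10-base units and reads the same on both strands, and it was searched for in RefSeq promoter windows of build GRCm38.p6 (300 bases, 250 before the start of transcription and 50 from it on). Windows were found for 9 of the 10 genes, Trp53inp1 being without one. A full 20-base element with at most 1 mismatch lay in 29 of 32851 windows (0.0883%), among them the window of the upstream Cdkn1a start and that of Ccng1. These stretches are shown because they hold the element in a pair of p53 targets whose RNA did not pass the age test; capitals mark the element.
Cdkn1a, upstream start, chr17:29090889-29090988, plus strand: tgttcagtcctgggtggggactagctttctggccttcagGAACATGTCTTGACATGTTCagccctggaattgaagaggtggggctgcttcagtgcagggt
Ccng1, chr11:40755417-40755516, minus strand: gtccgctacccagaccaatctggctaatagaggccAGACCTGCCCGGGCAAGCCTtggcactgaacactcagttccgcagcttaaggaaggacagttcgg
With the start of transcription as base 0, the element spans bases -51 to -32 of Cdkn1a and -195 to -176 of Ccng1. An exact 10-base unit, present in 8.36% of all windows, was found for Trp53, Mdm2, Cdkn1a, Ccng1, Ei24 and Gadd45a, and not in the windows of Cdkn2a, Gadd45b and Gadd45g. A match describes the letters in this window and is not evidence of binding.

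The Gadd45 genes encode a family of similar proteins, of which Gadd45g was called and the others were not, so the bases around their starts are shown side by side, with CCAAT boxes and TATAAA boxes in capitals.
Gadd45a, chr6:67037358-67037557, minus strand: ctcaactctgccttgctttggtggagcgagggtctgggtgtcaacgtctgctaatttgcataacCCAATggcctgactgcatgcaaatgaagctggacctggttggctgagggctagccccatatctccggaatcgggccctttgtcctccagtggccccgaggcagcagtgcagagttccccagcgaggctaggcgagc
Gadd45b, chr10:80929941-80930140, plus strand: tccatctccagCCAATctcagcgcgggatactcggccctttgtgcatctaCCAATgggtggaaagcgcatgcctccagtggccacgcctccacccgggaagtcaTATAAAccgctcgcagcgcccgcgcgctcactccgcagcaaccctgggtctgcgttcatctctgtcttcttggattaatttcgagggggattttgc
Gadd45g, chr13:51846525-51846724, plus strand: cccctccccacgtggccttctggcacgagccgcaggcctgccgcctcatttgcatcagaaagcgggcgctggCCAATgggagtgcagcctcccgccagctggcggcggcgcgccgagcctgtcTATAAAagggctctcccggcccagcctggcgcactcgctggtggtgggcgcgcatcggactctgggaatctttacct
All 3 windows held a CCAAT box (letters CCAAT on either strand, in 37.4% of all windows). The letters TATAAA, in 13.6% of windows, lay at bases -46 to -41 of Gadd45b and -27 to -22 of Gadd45g, and were not in the Gadd45a window.

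The sequenced libraries held 6882935 to 10458583 expected counts at 21 months and 4724687 to 11143125 at 3 months. The ribosomal RNA precursor Rn45s took 20% to 22.4% of the counts at 21 months and 18.7% to 25.6% at 3 months, the most in young replicate 1. Of the cell type lists, hepatocyte markers had the highest sums in every library: the 8 markers found summed to 70216 to 73979 CPM at 21 months and 53718 to 66748 CPM at 3 months, and all were tested. Alb, encoding albumin, was called higher, at a mean of 51818 CPM in old livers and 36157 CPM in young livers, but 6 of the 8 markers had a negative log2 fold change, 1 was called lower, and the median was -0.26. The 9 macrophage markers found summed to 116, 364 and 270 CPM in old livers and 198 to 333 CPM in young ones. B and plasma cell markers (7 found) were higher in every old library, at 8.77, 39.8 and 9.51 CPM, against 2.92 to 3.65 CPM in young livers. T and NK cell markers (10 found) summed to 3.55 to 7.54 and 2.83 to 4.56 CPM, neutrophil markers (7 found) to 1.68 to 4.19 and 0.343 to 1.21 CPM, and stellate cell and fibroblast markers (9 found) to 199 to 291 and 166 to 238 CPM, at 21 and 3 months. Endothelial markers (8 found) summed to 101.2 to 216 and 138 to 230 CPM, bile duct markers (6 found) to 28.9 to 31.6 and 31.8 to 46.4 CPM, and red cell markers (6 found) to 1039 to 1319 and 650 to 1847 CPM. Of the T and NK cell markers, Cd3e, Cd3g, Cd8a and Nkg7 were higher in every old library, at 9 counts or fewer per library. The ages overlapped for the other markers of that list. Among those, Cd4, Gzmb and Klrb1c had lower means in old livers (Cd4 at 1.25 against 2.22 CPM). No marker of these lists was at 0 in all libraries. Old replicate 2 held the highest sums of macrophage, B, T and NK, neutrophil and stellate cell markers. The shortfall of effective length against full length was 35.4, 30.9 and 21.4 bases in old replicates 1, 2 and 3 and 34.4 to 38.8 bases in the young libraries. What sets it is not stated in the labels. The part of these differences in the results below was not tested.

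The factor and its main inhibitor came first in the comparison. Trp53 RNA stood at 14.0, 16.9 and 19.6 CPM in old livers, against 19.9, 16.7, 15.4 and 14.1 CPM in young livers. The 2 ages covered almost the same range. The log2 fold change was 0.02 ± 0.15 (SE), with a 95% interval of -0.31 to 0.35 and an edgeR adjusted p of 0.951. Its sign is not fixed by these data: it was -0.052 with the replicate block. Mdm2, which marks p53 for degradation and is itself a p53 target, had 17.6, 12.3 and 15.5 CPM in old livers and 15.3, 18.7, 17.8 and 17.7 CPM in young livers. Only old replicate 2 lay below every young library. Its log2 fold change was -0.20 ± 0.14 (SE; 95% interval -0.51 to 0.11; edgeR adjusted p = 0.422).

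**Figure D1:**
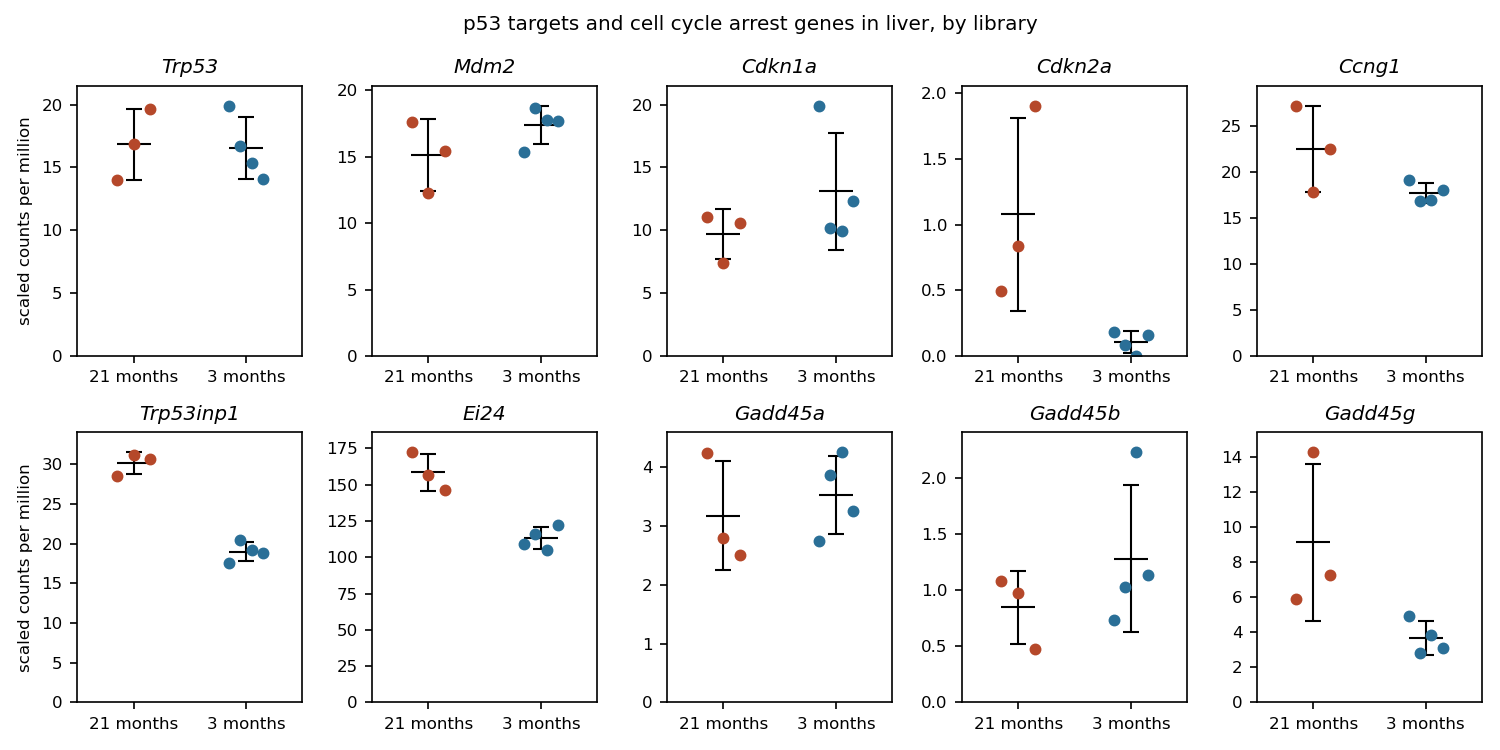
Level of each of the 10 genes in every library, in CPM scaled by TMM, with 21 months left of 3 months; points are libraries, and bars give the mean ± SD. Trp53inp1, Ei24, Gadd45g and Cdkn2a show old libraries all above the young ones, while the ages overlap for the other 6 genes.

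Cdkn1a, whose product p21 binds and inhibits CDK2 and is the best known effector of p53 arrest, had 11.04, 7.40 and 10.6 CPM in old livers, against 19.9, 10.2, 9.91 and 12.3 CPM in young livers. Young replicate 1, the library with the most Rn45s (25.6% of its counts), stood well above the other 6 libraries; the part of that in its level was not tested. Old replicate 2 was the lowest. The log2 fold change was -0.41 ± 0.24 (SE), with a 95% interval of -0.93 to 0.12 and an edgeR adjusted p of 0.319. Without young replicate 1 it was -0.15. The Cdkn1a row pools 2 transcripts whose starts lie 2790 bases apart, so the values do not say which start was used. Over the 7 libraries, the tested genes whose log2 CPM was most like that of Cdkn1a were Mrps18b, Nfs1 and Catsper2, with Pearson r of 0.969, 0.961 and 0.948. This likeness is a description over libraries that share preparation and depth, and Catsper2 averaged 1.47 CPM in old livers and 1.75 CPM in young livers.

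Ccng1 encodes cyclin G1, a p53 target that binds the phosphatase PP2A and acts on MDM2. It had 27.2, 17.9 and 22.5 CPM in old livers, against 19.2, 16.8, 17.0 and 18.0 CPM in young livers. Old replicates 1 and 3 lay above all young libraries, and old replicate 2 lay among them. Its log2 fold change was 0.36 ± 0.14 (SE; 95% interval 0.05 to 0.66), with an unadjusted p of 0.0253 and an adjusted p of 0.124 by edgeR's quasi-likelihood test. One old library decides the call: without old replicate 2 the log2 fold change was 0.51 (edgeR adjusted p = 0.0259), and without old replicate 1 it was 0.19.

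Trp53inp1 and Ei24 are p53 targets of cell death and autophagy, and both rose. Trp53inp1, whose product binds p53-modifying kinases and takes part in autophagy, had 28.6, 31.1 and 30.7 CPM in old livers, against 17.5, 20.5, 19.2 and 18.8 CPM in young livers. The ages were far apart next to the spread within each, with means of 30.1 ± 1.37 CPM at 21 months and 19.0 ± 1.23 CPM at 3 months (SD, n = 3 and n = 4). The log2 fold change was 0.66 ± 0.11 (SE; 95% interval 0.42 to 0.89; edgeR adjusted p = 0.00217). The call held in all 17 alternatives run, with adjusted p between 0.000442 and 0.0420, the replicate block among them.

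Ei24, also called PIG8, encodes a membrane protein of the endoplasmic reticulum needed for autophagy. It had 172, 157 and 147 CPM in old livers, against 109, 116, 105 and 122 CPM in young livers. Every old library was above every young one, and the means were 159 ± 12.9 CPM at 21 months and 113 ± 7.58 CPM at 3 months (SD, n = 3 and n = 4). The log2 fold change was 0.49 ± 0.10 (SE; 95% interval 0.28 to 0.69; edgeR adjusted p = 0.00507). Ei24 too was called in all 17 alternatives, with adjusted p between 0.000390 and 0.0243. Both rows pool 2 transcripts each.

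**Figure D2:**
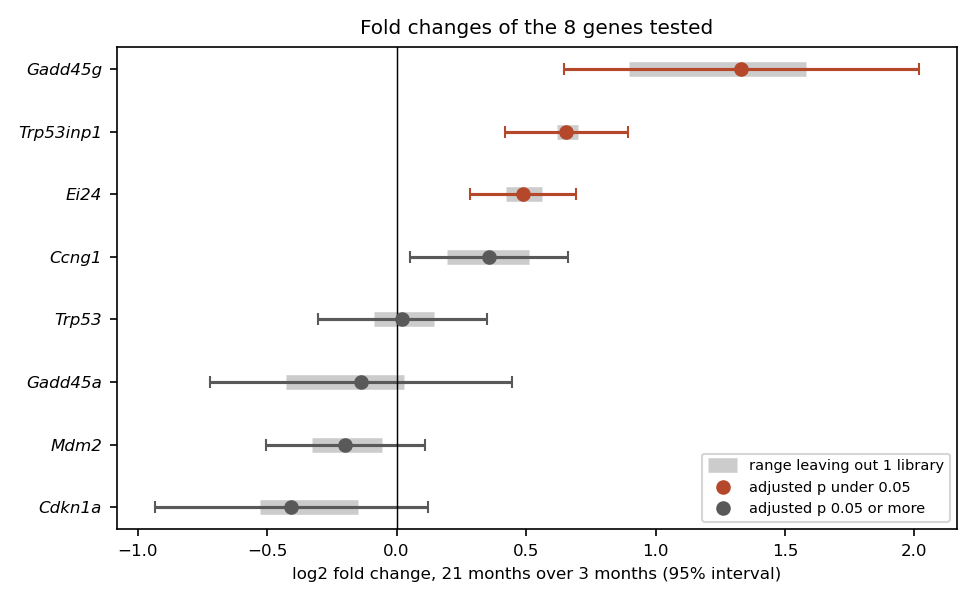
Log2 fold change, 21 months minus 3 months, of the 8 genes that passed the filter; points are the edgeR estimates, bars their 95% intervals, and grey bars the range when 1 library is left out. Intervals of Trp53inp1, Ei24, Gadd45g and Ccng1 lie above 0, that of Ccng1 starting at 0.05, and those of Trp53, Mdm2, Cdkn1a and Gadd45a include 0.

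Of the 3 Gadd45 genes, Gadd45g was called and the others were not; differences between the genes were not tested. Gadd45a, the member induced by p53 through a site in an intron, had 4.24, 2.79 and 2.50 CPM in old livers, against 2.74, 3.86, 4.25 and 3.25 CPM in young livers. The ages overlapped, with old replicate 3 below every young library, and the log2 fold change was -0.14 ± 0.27 (SE; 95% interval -0.72 to 0.45; edgeR adjusted p = 0.803). Gadd45b, an early response gene of NF-kB and TGF-beta signalling, was counted 11, 7 and 4 times in old livers, against 4, 12, 11 and 7 times in young livers. It missed the filter on low counts, and the ratio of scaled group counts, old over young, was 0.711 with a 95% exact binomial interval of 0.396 to 1.25 for counting error only. A two-sided exact permutation test over the 35 possible assignments of libraries to ages gave p = 0.4.

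Gadd45g, the member known for induction during differentiation and by cytokines, had 5.91, 14.2 and 7.25 CPM in old livers, against 4.93, 2.83, 3.84 and 3.08 CPM in young livers. Old replicate 2 stood highest, and old replicate 1 lay closest to the young livers. Means were 9.14 ± 4.47 CPM at 21 months and 3.67 ± 0.941 CPM at 3 months (SD, n = 3 and n = 4). The log2 fold change was 1.33 ± 0.32 (SE; 95% interval 0.64 to 2.02; edgeR adjusted p = 0.0192).

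The Gadd45g call was the least stable of the 3. With the replicate block, to which unpaired young replicate 4 adds nothing, the log2 fold change was 1.28 (edgeR adjusted p = 0.0643). Without young replicate 2 or 4 it was 1.19 or 1.27 (edgeR adjusted p = 0.0686 and 0.0679). With the shortfall of effective length as a covariate the adjusted p was 0.133 at a log2 fold change of 1.33. Without old replicate 2, whose macrophage, B cell, T and NK cell, neutrophil and stellate cell marker sums were the highest of the old libraries, the log2 fold change was 0.90 (edgeR adjusted p = 0.0392). The part of those cells in the result was not tested. The tested genes most like Gadd45g over the 7 libraries were Grn, Mkrn2 and Tmem170b, with Pearson r of 0.985, 0.984 and 0.98, as a description. They are the top of all 11251 tested genes. Like Gadd45g, all 3 were higher in every old library, so r includes the age difference. None of them was called (edgeR adjusted p 0.0516 to 0.163). Grn, which encodes the lysosomal protein progranulin, averaged 122 ± 13.1 CPM in old livers and 103 ± 3.92 CPM in young livers (SD, n = 3 and n = 4).

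Per length, Gadd45g made up 56.2%, 81.1% and 73.9% of the summed TPM of the 3 Gadd45 genes in old livers, against 62%, 39.9%, 40.6% and 44.8% in young livers. Old replicate 1 fell below young replicate 1, so the shares overlap. The summed TPM of the family was 20, 36.4 and 20 in old livers, and 14, 14.1, 18.6 and 11.7 in young livers.

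Cdkn2a is the gene most used as a marker of senescent cells. Its row holds both products, which start 12427 bases apart and share their downstream exons in different reading frames. The bases on either side of each start are shown because a summed row cannot tell the products apart; capitals mark transcribed bases from the start on.
Cdkn2a, upstream start of the p19Arf transcript, chr4:89294570-89294669, minus strand: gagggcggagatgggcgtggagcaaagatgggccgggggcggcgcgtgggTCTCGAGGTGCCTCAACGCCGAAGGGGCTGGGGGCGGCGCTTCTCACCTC
Cdkn2a, downstream start of the p16Ink4a transcript, chr4:89282143-89282242, minus strand: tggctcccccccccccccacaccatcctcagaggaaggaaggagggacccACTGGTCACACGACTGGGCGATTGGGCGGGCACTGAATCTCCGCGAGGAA
The first exons thus differ in their letters, while the deposited row gives 1 sum per library.

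Counts of Cdkn2a were 5, 6 and 16 in old livers, against 1, 1, 0 and 1 in young livers, which is 0.493, 0.838 and 1.90 CPM and 0.182, 0.0858, 0 and 0.162 CPM. Every old library was above every young one, but the young libraries all lay below the level that 3 counts represent in them (0.257 to 0.607 CPM). Old replicate 1, at 0.493 CPM, was itself below that level of young replicates 1 and 3 (0.547 and 0.607 CPM). Its place above those libraries is therefore not sure. The ratio of scaled group counts, old over young, was 9.88, with a 95% exact binomial interval of 3.04 to 50.9 that covers counting error only. An exact two-sided permutation test of CPM over the same 35 assignments gave p = 0.0286, the smallest this design allows. This p restates the separation of the ages and is not further support. Of all tested genes, 11.3% were higher in every old library, and Cdkn2a was not among those tested. With the numbered pairs, 3 of 3 were higher in the old liver, as any pairing must give where the ages do not overlap. The exact permutation p of 0.25, the smallest that 3 pairs allow, therefore adds nothing to that separation.

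Old replicate 3 held 16 of the 27 counts, and it was also the library with the smallest shortfall of effective length (21.4 bases); the part of that in the result was not tested. Without it the ratio was 5.98 (1.58 to 33.4), and over all omissions of 1 library it lay between 5.98 and 13.3. With no filter on low counts, edgeR over 16902 genes gave a log2 fold change of 3.13 ± 0.79 (SE; adjusted p = 0.00687), a value that depends on the prior count and bounds nothing. The same fit gave Gadd45b -0.53 (edgeR adjusted p = 0.600).

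Ordered by TPM, a level per length, Ei24 was the highest in old livers at a mean of 152 (144 to 156), followed by Trp53 at 20.3 (15.9 to 24.0), Gadd45g at 18.5 (11.3 to 29.5), Ccng1 at 13.5 (11.2 to 15.5) and Trp53inp1 at 11.7 (10.4 to 12.5). Cdkn1a at 10.7, Mdm2 at 10.5, Gadd45a at 5.53, Cdkn2a at 2.81 and Gadd45b at 1.43 TPM came next. In old livers the ranges of neighbours in this order were apart only between Ei24 and Trp53 and between Mdm2 and Gadd45a. In young livers the order was Ei24 at 99.4 (91.3 to 110), Trp53 at 18.2, Cdkn1a at 13.3, Mdm2 at 11.2, Ccng1 at 9.83, Trp53inp1 at 6.79, Gadd45g at 6.77, Gadd45a at 5.77, Gadd45b at 2.04 and Cdkn2a at 0.24 TPM. In young livers neighbours were apart between Ei24 and Trp53, Ccng1 and Trp53inp1, Gadd45a and Gadd45b, and Gadd45b and Cdkn2a. Gadd45g stood at place 3 of 10 in old livers and at place 7 of 10 in young livers, with a range that overlapped those of its neighbours at both ages. On the log2(TPM + 0.5) scale the median of all tested genes moved by 0.113, and relative to that median the changes were 1.19 for Gadd45g, 0.63 for Trp53inp1, 0.50 for Ei24, 0.32 for Ccng1 and -0.38 for Cdkn1a.

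The wider p53 pathway was read from lists of textbook genes, written with earlier results of these data known. They are described by counts of calls and medians beside the shares of all genes (5.47% higher and 5.86% lower, with a median of -0.0015). Among genes that control p53 (kinases, cofactors and relatives), 16 of 20 were tested and edgeR called 0; at an unadjusted p under 0.05, 0 were higher and 4 lower, and DESeq2 and limma voom called 0. Hipk2, a kinase that phosphorylates p53, averaged 56.7 ± 13.8 CPM at 21 months and 57.5 ± 3.91 CPM at 3 months, and Usp7, which removes ubiquitin from MDM2 and p53, 42.3 ± 5.07 and 49.3 ± 3.91 CPM (SD, n = 3 and n = 4). The relatives Trp63 and Trp73 were at 0 in all libraries, where 3 counts over a group are 0.117 CPM at 21 months and 0.106 CPM at 3 months. The median log2 fold change of this list was -0.06.

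**Figure D3:**
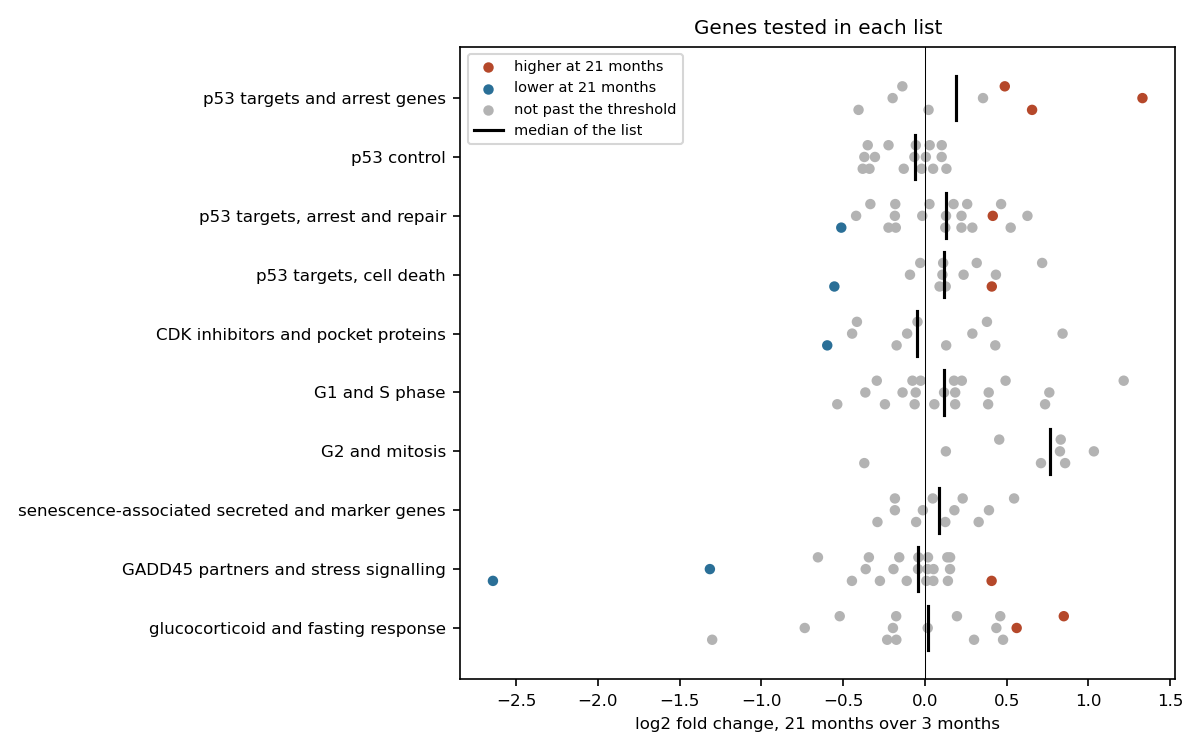
Log2 fold change, 21 months minus 3 months, of each tested gene by list, from edgeR; each point is 1 gene, red where called higher and blue where called lower, and the line in a row is the list's median. Medians of the other lists lie between -0.06 and 0.19, and the G2 and mitosis list has a median of 0.77 with no gene called.

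Of the p53 targets of arrest and DNA repair, 20 of 26 were tested, with 1 called higher, 1 lower and a median of 0.13. Pml, which builds the nuclear bodies where p53 is modified, rose to 25.9 ± 4.03 CPM in old livers, against 19.4 ± 1.05 CPM in young livers (log2 fold change 0.42 ± 0.13 SE; edgeR adjusted p = 0.0496). Ercc5, a nuclease of nucleotide excision repair, fell to 8.69 ± 1.03 CPM in old livers, against 12.5 ± 0.470 CPM in young livers (log2 fold change -0.51 ± 0.15 SE; edgeR adjusted p = 0.0405). Both calls ended with the replicate block (edgeR adjusted p = 0.0743 for Pml and 0.0673 for Ercc5) and on leaving out any library other than old replicate 1 (0.0789 to 0.142 for Pml, 0.0750 to 0.178 for Ercc5). Xpc, a sensor of DNA damage, averaged 15.7 ± 1.55 CPM in old livers and 20.9 ± 2.61 CPM in young livers without passing the test (edgeR adjusted p = 0.0578). The receptor Epha2, also not called, averaged 27.2 ± 10.7 and 22.5 ± 1.33 CPM at 21 and 3 months; without old replicate 2 it was called, at a log2 fold change of 0.55 (edgeR adjusted p = 0.0302), and without old replicate 1 the log2 fold change was -0.045.

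Of the p53 targets of cell death, 12 of 16 were tested, with 1 called higher, 1 lower and a median of 0.12. Perp, a membrane protein of cell junctions, averaged 79.3 ± 12.9 CPM in old livers and 59.8 ± 3.89 CPM in young livers (log2 fold change 0.41 ± 0.11 SE; edgeR adjusted p = 0.0313). Aen, a nuclease that digests DNA in dying cells, averaged 11.3 ± 0.786 CPM in old livers and 16.9 ± 2.97 CPM in young livers (log2 fold change -0.55 ± 0.16 SE; edgeR adjusted p = 0.0338). Leaving out young replicate 2, 3 or 4 or old replicate 1 ended the Perp call (edgeR adjusted p 0.0786 to 0.0908), and leaving out young replicate 1, 3 or 4 or old replicate 2 or 3 ended that of Aen (0.0602 to 0.0927). Bax, the pore-forming death protein, averaged 16.8 ± 0.617 CPM at 21 months and 15.4 ± 1.54 CPM at 3 months, and the survival gene Bcl2l1 30.9 ± 2.27 and 29.1 ± 2.33 CPM; neither was called.

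Other CDK inhibitors were set beside Cdkn1a and Cdkn2a. In the list of CDK inhibitors and pocket proteins, which bind E2F factors, 11 of 14 genes were tested, with 0 called higher, 1 lower and a median of -0.05. Cdkn1b, whose product p27 holds resting cells out of the cycle, had 16.8, 14.8 and 10.9 CPM in old livers, against 19.2, 21.9, 20.03 and 24.7 CPM in young livers. All old libraries were below all young ones, and the log2 fold change was -0.60 ± 0.15 (SE; edgeR adjusted p = 0.0231). The call was lost without young replicate 2 or 4 or old replicate 3 (edgeR adjusted p 0.0644 to 0.127). Cdkn2d, encoding p19Ink4d, had 3.35, 2.51 and 2.85 CPM in old livers and 1.46, 1.37, 2.63 and 1.30 CPM in young livers. It was not called (log2 fold change 0.84 ± 0.32 SE, edgeR adjusted p = 0.105). The ages overlapped in CPM, with young replicate 3 above old replicate 2, while in TPM these libraries stood at 4.36 and 4.40. Cdkn2b, the neighbour of Cdkn2a that encodes p15Ink4b, was counted 0, 2 and 0 times in old livers and 2, 2, 1 and 0 times in young livers, too few to compare. Rbl2 and E2f4, partners in the repressor complex of resting cells, averaged 26.4 ± 2.14 and 18.3 ± 2.18 CPM at 21 months, against 28.4 ± 2.73 and 24.8 ± 4.22 CPM at 3 months, and were not called; E2f4 was called without young replicate 1 (log2 fold change -0.55; edgeR adjusted p = 0.0282) and with no filter on low counts (0.0379).

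**Figure D4:**
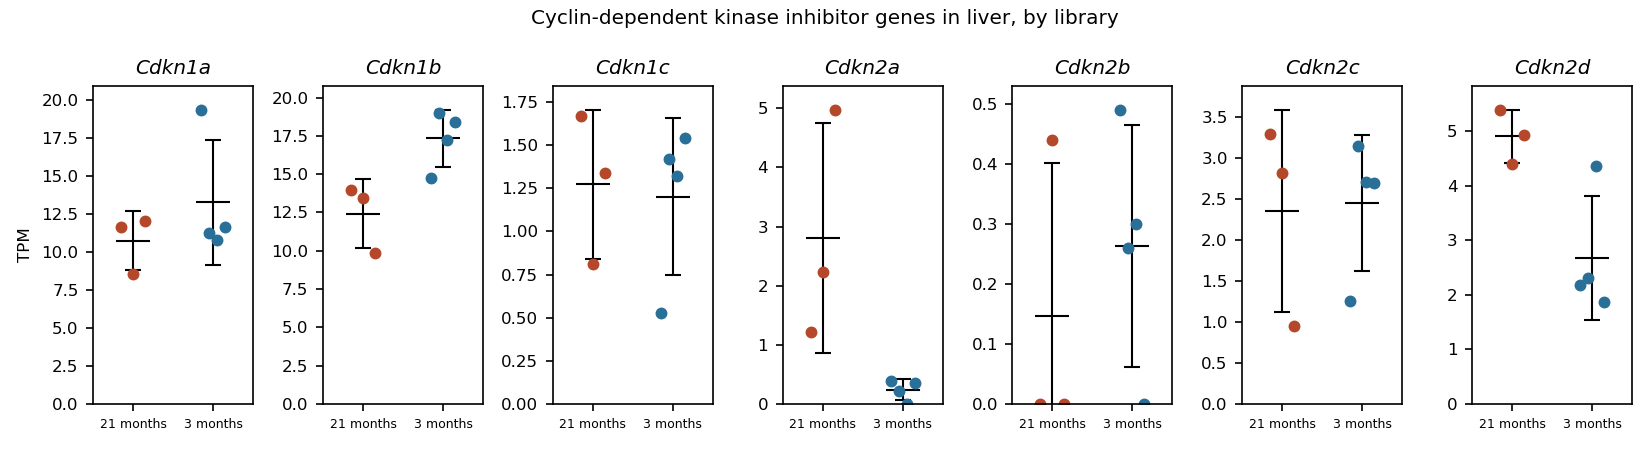
Level of 7 CDK inhibitor genes in TPM by library, 21 months left of 3 months, with mean ± SD (bars end at 0). Cdkn2a lies between 1.21 and 4.98 TPM in old livers and at or below 0.38 TPM in young livers, and Cdkn1b is lower in every old library.

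Genes of G1 and S phase gave 0 calls among 21 of 24 tested, with a median of 0.12; at an unadjusted p under 0.05, 2 were higher and 1 lower, DESeq2 called 1 and limma voom 0. The D cyclins Ccnd3 and Ccnd1 averaged 36.9 ± 5.38 and 27.3 ± 10.1 CPM in old livers, against 35.7 ± 2.46 and 28.2 ± 6.24 CPM in young livers. Of the genes of G2 and mitosis, 8 of 24 were tested and 0 called, with a median of 0.77; 2 were higher and 0 lower at an unadjusted p under 0.05, and DESeq2 and limma voom called 0. Their summed level was 62.3, 31.8 and 28.3 CPM in old livers, against 30.7, 24.2, 26.5 and 25.2 CPM in young livers, so that old replicate 1 stood apart. Mki67, a marker of dividing cells, had 6.11, 2.23 and 2.02 CPM in old livers and 2.55, 1.80, 2.43 and 2.11 CPM in young livers, and its log2 fold change of 0.71 became -0.028 without old replicate 1. Hmmr, a spindle protein, had 4.93, 3.63 and 3.69 CPM in old livers, against 2.01, 2.32, 2.83 and 2.11 CPM in young livers (log2 fold change 0.83 ± 0.26 SE; edgeR adjusted p = 0.0525), and it was called with the ribosomal RNA rows removed (edgeR adjusted p = 0.0472) and by limma on log2(TPM + 0.5) (0.0496).

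Genes of the senescence-associated secretory phenotype and related markers gave 0 calls among 12 of 27 tested, with a median of 0.09; at an unadjusted p under 0.05, 1 was higher (Igfbp5) and 0 lower, DESeq2 called 0 and limma voom 1. Vegfa and Hmgb1 averaged 91.9 ± 4.29 and 67.8 ± 18.8 CPM in old livers, against 104 ± 10.3 and 77.1 ± 5.42 CPM in young livers. Old replicate 1 decides the Hmgb1 call: without it the log2 fold change was -0.44 (edgeR adjusted p = 0.00889). The genes below the filter had no test, so the 0 calls do not cover them. Ccl5 and Mmp12 are named because they alone among them had ages that did not overlap in CPM. Of all tested genes, 24.2% did not overlap, in either direction. Ccl5 was counted 9 to 28 times per old library and 3 to 5 times per young library. Mmp12 was counted 4 to 6 times per old library and 0 to 2 times per young library. These bulk samples do not say which cells the RNA of either gene came from. Only Il6, Mmp3 and Mmp13 of the untested genes had a lower mean CPM in old livers, each at 3 counts or fewer per library. Cxcl2 was at 0 in all libraries.

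Partners of the GADD45 proteins and stress genes that share their inducers gave 1 higher and 2 lower calls among 22 of 25 tested, with a median of -0.04. Ddit3, the CHOP factor of the unfolded protein response also known as GADD153, fell to 5.54 ± 1.19 CPM in old livers, against 14.1 ± 3.31 CPM in young livers (log2 fold change -1.32 ± 0.21 SE; edgeR adjusted p = 0.00144). The immediate early gene Egr1 fell to 2.97 ± 1.43 CPM in old livers, against 18.3 ± 7.20 CPM in young livers (log2 fold change -2.64 ± 0.42 SE; edgeR adjusted p = 0.00693). Foxo1, a fasting-responsive factor, averaged 31.3 ± 4.55 CPM in old livers and 23.5 ± 1.90 CPM in young livers (edgeR adjusted p = 0.0459), a call lost on leaving out any library other than old replicate 1 (0.0580 to 0.140). The kinases Mapk14 and Map2k3 averaged 81.4 ± 6.90 and 54.7 ± 1.58 CPM at 21 months, against 73.9 ± 5.14 and 56.5 ± 2.63 CPM at 3 months, and were not called.

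Glucocorticoid and fasting genes were counted because Cdkn1a and Gadd45b are known to respond to feeding state, which the labels do not give. Of 15 tested among 16, 2 were higher and 0 lower, with a median of 0.02. G6pc, the last enzyme of glucose release, averaged 190.5 ± 9.77 CPM in old livers and 129 ± 19.0 CPM in young livers (log2 fold change 0.56 ± 0.11 SE; edgeR adjusted p = 0.00583). Ppargc1a, a coactivator of fasting metabolism, averaged 5.94 ± 1.40 CPM in old livers and 3.21 ± 0.597 CPM in young livers (log2 fold change 0.85 ± 0.24 SE; edgeR adjusted p = 0.0348), a call lost on leaving out any library other than old replicate 1 (0.0579 to 0.116). Tat and Pck1, classical targets of glucocorticoids, averaged 1648 ± 134 and 671 ± 126 CPM at 21 months, against 1438 ± 168 and 545 ± 180 CPM at 3 months, and were not called.

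Of the 10 genes called in these lists, Perp and Ddit3 were also called with the shortfall of effective length as a covariate, and the other 8 were not (edgeR adjusted p 0.0724 to 0.383). DESeq2 did not call Pml, Ercc5, Aen, Foxo1 and Ppargc1a, with adjusted p of 0.0816, 0.101, 0.0539, 0.0691 and 0.0538. On the log2(TPM + 0.5) scale, limma did not call these 5 genes or Cdkn1b, whose adjusted p there was 0.0715.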

How the data were processed

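RNA was measured by sequencing in 7 mouse liver libraries, 3 at 21 months and 4 at 3 months, from 1 table per sample with 23366 gene symbols. The authors deposited an expected count per gene, an estimate that shares ambiguous reads between genes; 86.5% of these expected counts were whole numbers. TPM, relative transcript abundance per length, was also deposited by the authors, and so was FPKM, which was not used. Per the file headers, the other columns give gene length and effective length. The submitters' processing notes name TopHat, RSEM, edgeR and the build mm9, without versions or roles, and strand settings were not given in the sources used.

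Expected counts were rounded, genes were kept by filterByExpr (minimum count 10, minimum total 15; 11251 genes) and scaled by TMM, and 21 months was set against 3 months with edgeR's robust quasi-likelihood test, Benjamini-Hochberg adjusted over all genes tested, at a threshold of 0.05. Log2 fold changes are 21 over 3 months; the SE is their size over the root of F, and intervals are 95%. CPM are counts per 1e+06 scaled counts. Libraries held 4724687 to 11143125 expected counts, so 3 counts, the limit that a count of 0 allows, were 0.257 to 0.607 CPM; floors and counting intervals cover counting error only. Every pair of libraries differed by more than counting noise. The fit was tested on simulated data.

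Replicates with the same number deviated together (correlations of 0.107, 0.174 and 0.104 over genes for replicates 1, 2 and 3), each above 0.1, so the numbers were taken as pairs in a replicate block. Young replicate 4 has no old partner, so in the block it adds nothing to the age estimate. The block and the omission of young replicate 4 are therefore not independent alternatives. Old replicate 1 and young replicate 4, which have different numbers, correlated at 0.159. The labels do not say where the pairing comes from. The other alternatives were RLE and library-size scaling, DESeq2, limma voom, limma on log2(TPM + 0.5), other filters, ribosomal RNA rows removed, the shortfall of effective length as a covariate, and leaving out each library. The members and lists were chosen with earlier results of these data known. Besides the members, genes are named by rule: up to 4 called genes of each list by adjusted p, up to 2 not called by level, and 3 genes most like Cdkn1a and Gadd45g; other genes were named after their values were seen. R 4.3.3, edgeR 4.0.16, limma 3.58.1, DESeq2 1.42.0, Python 3.11.15 and matplotlib 3.10.9 were used. Promoter windows are RefSeq sequences of GRCm38.p6, matched by symbol for 9 of 10 genes; the gene without a window is Trp53inp1. No coordinates were carried over to mm9.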

Additional observations from a re-analysis of the deposited data

Results flagged for a closer look

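Within the 4 young libraries, values were checked for any far from the rest. CPM was checked for the members and for the genes named by rule from the lists, and TPM for the members only. The measure was the gap to the nearest neighbour over the group's range (Dixon's test at its 95% critical value). Of 48 sets of values checked, 2 stood out, both in TPM, where chance gives about 1 in 20. The CPM of the same 2 genes did not stand out. Cdkn1a was at 19.4 TPM in young replicate 1, against 10.8 to 11.6 TPM in the other young libraries (gap over range 0.9). Ccng1 was at 9.21 TPM in young replicate 4, against 10 to 10.1 TPM in the other young libraries (gap over range 0.888).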

How the results depend on the processing

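Among the 10 genes, the number called lay between 2 and 4 under every alternative, and Trp53inp1 and Ei24 were called in all. The blocked fit ended the calls of Gadd45g, Pml and Ercc5 (the values stand in the text) and changed no other call of a named gene. Over all genes 1274 were called, 332 with the shortfall of effective length as a covariate, and 580 to 1642 without 1 library (773, 834 and 745 without young replicates 2, 3 and 4, and 580 without old replicate 3). Over the lists 10 genes were called, 6 by DESeq2, 3 with the covariate, and 3 to 12 without 1 library. On the TPM scale 74.9% of calls were higher, against 48.3% with TMM.

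Signs that turned all belong to genes not called. The log2 fold change of Trp53 was -0.052 with the replicate block, -0.17 with the covariate and -0.085 to 0.15 without 1 library. That of Gadd45a was 0.19 with the covariate and -0.43 to 0.030 without 1 library. Hipk2 gave 0.017 with library-size scaling, 0.076 on TPM and -0.13 to 0.17 without 1 library. Without 1 library, Epha2 gave -0.045 to 0.55, Ccnd3 -0.067 to 0.16, Ccnd1 -0.35 to 0.18 and Mki67 -0.028 to 0.997. On TPM, Rbl2 gave 0.021, Ccnd1 0.046 and Map2k3 0.078, and Hmgb1 gave 0.085 with the covariate. The cause was not tested. Of all comparisons of named genes with an alternative, 512 kept direction and side of the threshold, 69 lost the call, 7 gained it and 20 turned sign. At this depth the filter on low counts left Cdkn2a, Gadd45b and 16 of 24 genes of G2 and mitosis without a test.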
